A study of Mus musculus with 2 samples.

Results

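Accessible chromatin sites with a high peak value in both DNase-seq libraries of mouse hippocampal tissue, but with no called footprint in either, are described here. They were selected on the peak value and on the footprint calls. The longer of each library's 2 peak lists were merged, and a region was kept if its highest peak value was 1 or more in both libraries and it overlapped no footprint of either by even 1 bp. Of 26208 regions that strong, 271 were kept (1.03%), out of 139217 merged regions in all. They are called footprint-free regions below. They were set against the 24649 strong regions that held a footprint in both libraries (footprinted regions), which were weighted so that their peak values were distributed like those of the footprint-free regions.

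DNase-seq sequences the ends left when DNase I cuts DNA that is not packed into nucleosomes. The tissue (hippocampus by 1 label, layer of hippocampus by others) was from female B6CASTF1/J mice aged 2 months, a cross of C57BL/6J with CAST/EiJ. There was 1 group with 2 libraries, labelled biological replicates 1 and 2, with no treatment and no control. Their biosample records differ but their donor record is shared, and no label says that separate animals were used, so differences between the libraries may be technical.

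A transcription factor bound to DNA shields the few bases it covers, and a footprint is a short dip in the cut rate inside an accessible site. Factors that stay bound only briefly can leave no dip, and the sequence preference of DNase I itself also shapes the cut rate. Many vertebrate promoters lie in CpG islands, stretches rich in G, C and the CpG dinucleotide, where chromatin is open on both sides of the transcription start site (TSS) and the first nucleosomes flank it.

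The sequences of the 3 promoter regions and the 2 distal regions with the highest values show the kinds of site that lack a footprint, with 1 footprinted region of nearly equal value for the highest of each. Each is the 300 bp around the middle of the region on the plus strand of the RefSeq GRCm38.p6 assembly, with CpG dinucleotides in capitals. The regions of Mapkapk2 (220 bp), Ccdc58 (280 bp) and Mif (220 bp) are narrower, so their sequences and CpG counts include flanking bases. The footprint-free promoter sequences of Bcl7b (chr5:135168241-135168540), Tnrc6c (chr11:117654031-117654330) and Hdac4 (chr1:92180791-92181090) hold 43, 38 and 30 CpGs. The sequence at the footprinted Ccdc58 promoter (chr16:36071871-36072170), whose region is nearest to that of Bcl7b in value, holds 23. Of the distal footprint-free sequences, both intronic, that nearest to Fbxl22 (chr9:66512341-66512640) holds 9 CpGs and that nearest to Mapkapk2 (chr1:131078841-131079140) holds 1. The footprinted region nearest in value to that of Fbxl22 is the promoter of Mif, whose sequence (chr10:75860141-75860440) holds 20.
Footprint-free promoter, Bcl7b: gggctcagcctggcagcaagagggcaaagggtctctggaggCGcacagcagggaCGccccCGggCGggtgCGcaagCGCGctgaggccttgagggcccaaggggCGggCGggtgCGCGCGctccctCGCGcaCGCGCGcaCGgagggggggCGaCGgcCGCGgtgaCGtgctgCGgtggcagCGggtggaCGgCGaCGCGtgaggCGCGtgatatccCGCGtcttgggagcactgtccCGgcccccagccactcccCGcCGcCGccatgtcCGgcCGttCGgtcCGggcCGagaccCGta
Footprint-free promoter, Tnrc6c: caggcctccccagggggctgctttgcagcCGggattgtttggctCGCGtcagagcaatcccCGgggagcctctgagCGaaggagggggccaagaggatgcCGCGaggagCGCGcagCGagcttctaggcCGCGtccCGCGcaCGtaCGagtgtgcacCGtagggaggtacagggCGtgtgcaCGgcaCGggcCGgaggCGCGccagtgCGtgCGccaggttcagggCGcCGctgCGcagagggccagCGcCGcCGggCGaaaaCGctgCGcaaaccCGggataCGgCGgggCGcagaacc
Footprint-free promoter, Hdac4: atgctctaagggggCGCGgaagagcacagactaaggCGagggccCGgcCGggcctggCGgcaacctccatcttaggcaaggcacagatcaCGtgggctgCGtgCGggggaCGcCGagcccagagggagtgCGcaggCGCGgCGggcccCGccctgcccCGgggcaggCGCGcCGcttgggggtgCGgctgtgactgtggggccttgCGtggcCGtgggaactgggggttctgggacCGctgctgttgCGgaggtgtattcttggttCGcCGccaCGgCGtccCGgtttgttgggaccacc
Footprint-free intron, Fbxl22: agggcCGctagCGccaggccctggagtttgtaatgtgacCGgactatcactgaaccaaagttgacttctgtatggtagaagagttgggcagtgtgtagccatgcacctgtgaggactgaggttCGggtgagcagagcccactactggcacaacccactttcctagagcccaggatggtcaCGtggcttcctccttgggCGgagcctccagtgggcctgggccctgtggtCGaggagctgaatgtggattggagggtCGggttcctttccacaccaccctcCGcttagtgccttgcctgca
Footprint-free intron, Mapkapk2: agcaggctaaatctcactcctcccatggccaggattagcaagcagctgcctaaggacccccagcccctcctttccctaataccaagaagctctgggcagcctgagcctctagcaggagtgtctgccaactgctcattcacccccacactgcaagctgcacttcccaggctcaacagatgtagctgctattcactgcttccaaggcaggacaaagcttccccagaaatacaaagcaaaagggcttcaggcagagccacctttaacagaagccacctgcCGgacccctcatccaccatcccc
Footprinted promoter, Ccdc58: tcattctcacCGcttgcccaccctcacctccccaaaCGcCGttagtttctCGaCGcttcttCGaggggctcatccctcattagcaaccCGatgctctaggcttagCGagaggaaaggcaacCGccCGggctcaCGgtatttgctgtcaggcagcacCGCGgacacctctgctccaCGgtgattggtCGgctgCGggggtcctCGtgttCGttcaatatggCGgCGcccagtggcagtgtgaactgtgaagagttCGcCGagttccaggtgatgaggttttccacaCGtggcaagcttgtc
Footprinted promoter, Mif: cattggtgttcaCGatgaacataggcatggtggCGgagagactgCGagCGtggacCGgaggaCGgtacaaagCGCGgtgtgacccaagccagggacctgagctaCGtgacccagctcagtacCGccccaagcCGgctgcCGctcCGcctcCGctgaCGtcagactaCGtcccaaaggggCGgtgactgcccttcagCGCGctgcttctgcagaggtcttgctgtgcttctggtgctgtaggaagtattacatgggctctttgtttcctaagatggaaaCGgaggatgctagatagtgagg

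The 2 libraries differed in how much was called. Replicate 1 had 129779 peaks and 227153 footprints, and replicate 2 had 71895 peaks and 118610 footprints, with a median footprint width of 9 bp in both. Read depth is not given. Within a library the peak values below 1 were multiples of a fixed step, and a value of 1 was 113 such steps in replicate 1 and 96.9 in replicate 2. Higher values were not checked for this. Of the strong regions, 532 (2.03%) had no footprint in replicate 1 and 1298 (4.95%) had none in replicate 2. Lack of a footprint recurred between the libraries. Of the 532 regions with none in replicate 1, 271 (50.9%, 95% Wilson interval 46.7 to 55.2) had none in replicate 2 either, against 1027 (4.00%, 3.77 to 4.25) of the 25676 with a footprint in replicate 1. These 2 shares are not matched on peak value, and the part of value in the contrast was not tested. The counts describe the selection and carry no test. All intervals here cover counting error only.

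Footprint-free regions lay at the low end of the strong range. The share without a footprint was 2.22% (164 of 7388) at a geometric mean value of 1 to 1.5, 1.31% (81 of 6192) at 1.5 to 2 and 0.488% (26 of 5330) at 2 to 3. It was 0 of 4279 at 3 to 5 and 0 of 3019 at 5 or more. Taking 3 counts as the limit of a count of 0, these allow shares of up to 0.0701% and 0.0994%, and the Wilson upper bounds are 0.0897% and 0.127%. Peak values of the 271 regions ran from 1.01 to 3.13 in replicate 1 (median 1.41) and from 1.00 to 2.94 in replicate 2 (median 1.43). The weighted footprinted regions had medians of 1.52 in replicate 1 and 1.31 in replicate 2. The log2 ratio of replicate 1 to replicate 2 had a median of -0.03 in footprint-free regions and 0.18 in footprinted regions, so relative to footprinted regions of equal mean value they stood slightly higher in replicate 2. The part of this shift in the results was not tested.

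**Figure D1:**
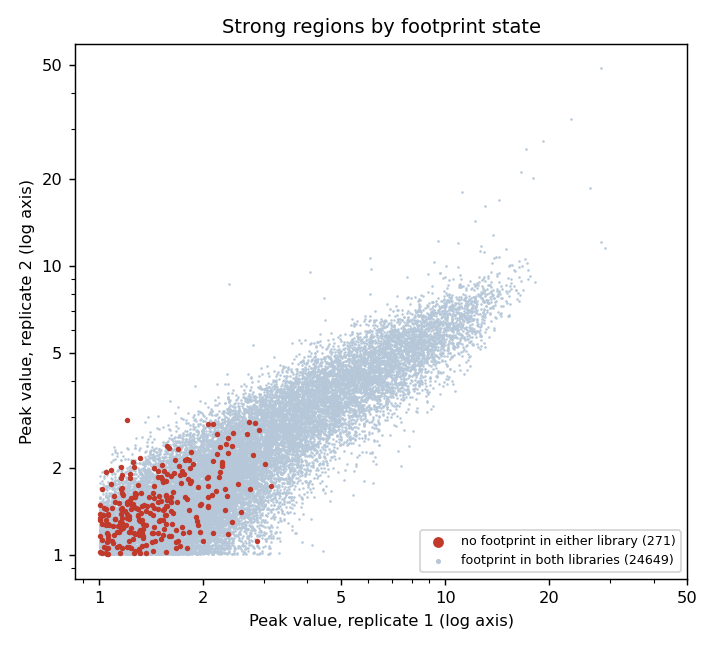
Peak value in replicate 1 (horizontal, log axis) and in replicate 2 (vertical, log axis) of strong regions, 271 footprint-free regions in red and 24649 footprinted regions in pale blue. Each point is 1 region; the footprint-free regions fill the low end, with no geometric mean value of 3 or more.

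The 10 regions with the highest mean value were 9 promoters and 1 intron. Bcl7b encodes a subunit of the BAF chromatin remodelling complex, and its region (chr5:135168201-135168580, 380 bp) had values of 2.82 in replicate 1 and 2.87 in replicate 2, with its middle 2 bp downstream of the TSS. The region of Tnrc6c, a protein of microRNA silencing complexes, had 2.89 and 2.70 (chr11:117654001-117654360, middle 108 bp upstream of the TSS). That of Hdac4, a class IIa histone deacetylase, had 2.71 and 2.88 (chr1:92180761-92181120, 600 bp upstream). In all 3 the libraries differed by less than 0.2 in value, and the sequences printed above hold at least 30 CpGs each.

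The zinc finger factor gene Klf16 followed with 2.67 in replicate 1 and 2.62 in replicate 2 (490 bp upstream), and the lipid kinase gene Pi4ka with 2.44 and 2.64 (422 bp downstream). Dnajb1, a heat shock co-chaperone, had 2.14 and 2.84 (148 bp downstream), and Phf20, a subunit of a histone acetyltransferase complex, had 2.07 and 2.84 (369 bp downstream). Both of these were higher in replicate 2. Azi2, an adaptor of innate immune signalling, had 2.35 and 2.54 (232 bp downstream), and Tbc1d14, a regulator of autophagy, had 2.41 and 2.38 (6 bp downstream). Of the 10 highest promoter regions, only that of Zmynd8, a reader of acetylated histones, was not CpG-dense: its values were 3.02 and 2.05, and its middle lay 726 bp downstream of the TSS.

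By position, the footprint-free regions were promoter regions. Of the 271, 240 (88.6%, 84.2 to 91.8) reached within 1 kb of a protein-coding TSS, against 24.4% of footprinted regions of equal value, a difference of 64.2 percentage points (95% interval 59.8 to 67.5). With the rule applied to 1 library alone, which takes in other regions (2299 for replicate 2 and 1359 for replicate 1), the difference was 34.6 and 36 points. With footprinted regions weighted on G + C content as well it was 29.3 points. Without any weighting, 46.0% of footprinted regions were in promoters. Footprinted promoter regions had a median value of 3.56 in replicate 1, and distal ones 1.83. Only 5 regions lay in exons (1.85%, against 10.4% of footprinted regions), 12 in introns (4.43% against 34.4%) and 14 between genes (5.17% against 30.9%). Read the other way, 1.96% of the 12225 strong promoter regions had no footprint (1.73 to 2.22), and 0.222% of the 13983 distal ones (0.156 to 0.315).

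Within promoters, they sat beside the TSS more often than on it, and the excess over footprinted regions was clearest downstream. A TSS lay inside 82 of the 240 promoter regions (34.2%, 28.5 to 40.4), against 62.5% of footprinted promoter regions of equal value, a difference of -28.4 percentage points (-34.3 to -21.9). The middle lay 200 to 500 bp downstream of the nearest TSS in 80 of them (33.3%), against 8.60% of footprinted promoter regions, a difference of 24.7 points (19.0 to 31). In the 200 bp upstream of the TSS the shares were 20.4% of footprint-free and 37.8% of footprinted promoter regions. In the 200 bp downstream of it they were 14.6% and 25.4%. From 500 to 200 bp upstream they were 8.33% and 7.31% (difference 1.02 points, -2.01 to 5.31). From 1000 to 500 bp upstream they were 9.17% and 6.35% (2.82 points, -0.347 to 7.23). Without regard to value, 11.5% (80 regions, 9.36 to 14.1) of the 694 strong regions whose middle lay 200 to 500 bp downstream of a TSS had no footprint. Of those whose middle lay within 200 bp of one, 0.877% (84 of 9583, 0.709 to 1.08) had none. These 2 shares are not matched on value, and no region with a geometric mean value of 3 or more was footprint-free. The part of value in this contrast was not tested.

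**Figure D2:**
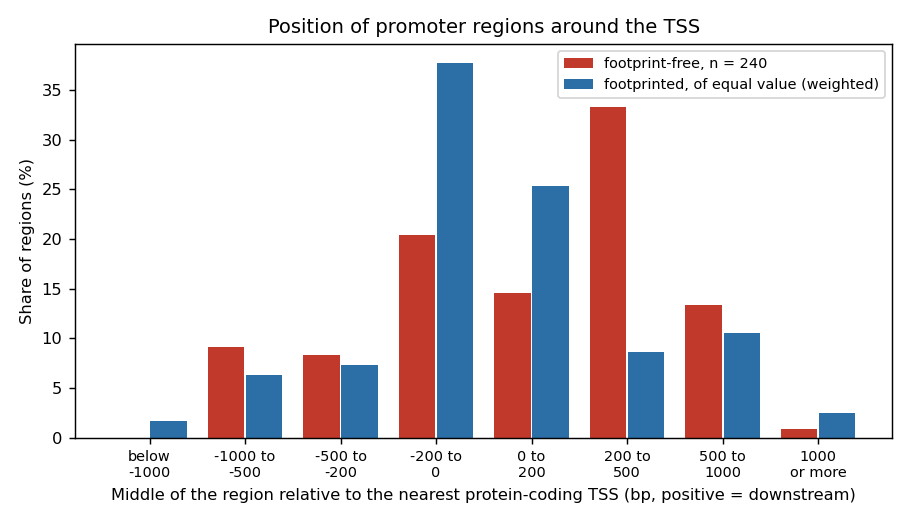
Share of promoter regions (percent) by the distance in bp of the region's middle from the nearest protein-coding TSS, for the 240 footprint-free promoter regions (red) and footprinted promoter regions of equal value (blue). The red bar is the taller by most at 200 to 500 bp downstream, 33.3% against 8.60%, and the lower by most just upstream of the TSS, 20.4% against 37.8%.

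Most footprint-free regions had a stronger, footprinted region next to them. In 246 of the 271 (90.8%, 86.7 to 93.7), another strong region with footprints in both libraries lay within 500 bp, edge to edge, against 7.04% of footprinted regions of equal value. The difference was 83.7 percentage points (79.7 to 86.7), and within promoters it was 77.3 points (94.6% against 17.3%, 73.4 to 79.9). With the rule applied to replicate 2 alone it was 41.8 points, and to replicate 1 alone 48.9. In 244 of the 246 the neighbour had the higher value in each library. Of footprinted regions of equal value, 5.04% had a neighbour with the higher geometric mean value, so there too a neighbour was mostly the stronger. Over the 246, the neighbour's value was a median of 3.91 times that of the footprint-free region in replicate 1 (quartiles 3.03 and 5.56) and 2.82 times in replicate 2 (2.22 and 3.85). For the 2383 footprinted regions with a neighbour, not weighted on value, the median ratio of geometric mean values was 1.01. Their neighbours are footprinted regions too, so a close pair can enter in both directions, which holds this median near 1. It is therefore no baseline for the ratios of the footprint-free regions. The median distance from a footprint-free region to the nearest footprinted strong region was 180 bp (quartiles 80 and 300). Of the 158 promoter regions that held no TSS themselves, 127 (80.4%, 73.5 to 85.8) had a neighbour within 500 bp that did. The matching share of footprinted promoter regions was not computed, so this one stands without a comparison. The value of a region is that of its own peaks. Whether signal of the neighbour reaches into it was not tested.

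The regions named above show this side by side. The Bcl7b region lay 80 bp from a footprinted region with values of 8.49 in replicate 1 and 5.11 in replicate 2. The Tnrc6c region lay 80 bp from one with 11.7 and 6.63, and the Hdac4 region 100 bp from one with 13.2 and 8.04. That of Phf20 was 20 bp from one with 6.35 and 4.59, and that of Pi4ka 160 bp from one with 12 and 7.16. The Zmynd8 region differed from these: the nearest footprinted strong region was 9439 bp away, and no footprint of either library lay within 500 bp.

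Called footprints lay within 500 bp of most of them, and few lay within 20 bp of their edges. The nearest footprint was a median of 190 bp from the region's edge in replicate 1 and 218 bp in replicate 2. The rule allows no overlap. Of all footprints, 93.8% in replicate 1 and 92.6% in replicate 2 overlapped a peak of the longer list. Few footprints could therefore lie just outside a region, and these distances were in part fixed by the selection. Within 500 bp, 248 regions had a footprint of replicate 1 and 245 had one of replicate 2. Under 20 bp from the edge, 1 region had a footprint of replicate 1 and 0 of 271 had one of replicate 2. In 21 regions (7.75%, 5.12 to 11.6) neither library had a footprint within 500 bp.

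**Figure D3:**
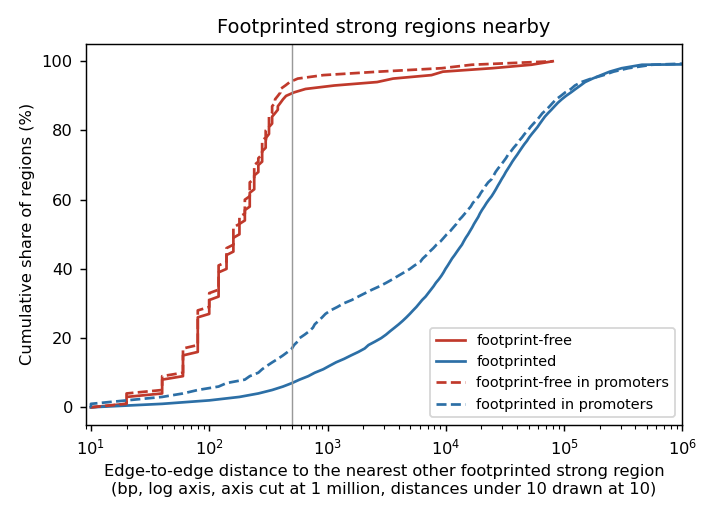
Cumulative share of regions (percent) by the edge-to-edge distance in bp (log axis) to the nearest other strong region with footprints in both libraries, for footprint-free regions (red) and footprinted regions of equal value (blue), in all strong regions (solid) and in promoters (dashed). At the grey line, 500 bp, the solid curves stand at 90.8% and 7.04%.

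In base composition the footprint-free regions resembled CpG islands, and the difference from footprinted regions was smaller within promoters. In the 300 bp around the middle, the median G + C content was 65.7% (quartiles 59.3 and 71.0) in footprint-free regions and 52.7% (48.3 and 58.7) in footprinted regions of equal value. A window was called CpG-dense with a G + C content of at least 50% and a ratio of observed to expected CpG of at least 0.6. Of the footprint-free regions 209 (77.1%, 71.8 to 81.7) were CpG-dense, against 20.9%, a difference of 56.2 percentage points (50.8 to 60.9). With the rule applied to replicate 2 or to replicate 1 alone, this difference was 30.2 and 27.4 points, and that in median G + C content was 7.67 and 6 points, against 13 with both. Compared within promoters, 82.5% of footprint-free and 64.9% of footprinted regions were CpG-dense, a difference of 17.6 points (12 to 22.2), and median G + C content was 66.3% and 64.3%. Among the 31 distal regions 11 were CpG-dense (35.5%, 21.1 to 53.1), against 6.12%, a difference of 29.4 points (15 to 46.9). Without regard to value, 2.00% of 9911 CpG-dense strong promoter regions (1.74 to 2.29) and 1.82% of 2314 other strong promoter regions (1.35 to 2.44) had no footprint. Footprinted CpG-dense promoter regions had a median value of 3.89 in replicate 1, in the range where no region was footprint-free.

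A wider region has more bases for a footprint to fall in, and the median width of footprint-free regions was the larger. It was 326 bp (quartiles 280 and 420, range 160 to 1240), against 240 bp (200 and 300) for footprinted regions of equal value. The difference in medians, 86 bp, was 20 bp with the rule applied to replicate 2 alone and 9 bp with replicate 1 alone. Within promoters the median was 340 bp, against 300 bp, while the upper quartiles were 420 and 424 bp and the highest 10% began at 540 and 597 bp, so there the lower part of the range was wider and the upper part was not. The widest was at Ankrd17, with 1240 bp and values of 1.44 in replicate 1 and 1.45 in replicate 2. It was followed by Ints6, a subunit of the Integrator complex (1180 bp, 1.11 and 1.33), Socs1, a suppressor of cytokine signalling (980 bp, 1.63 and 1.28), 1190002N15Rik (940 bp, 1.06 and 1.37) and Kdm6a, an X-linked histone demethylase (840 bp, 1.06 and 1.15). All 5 were promoter regions.

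**Figure D4:**
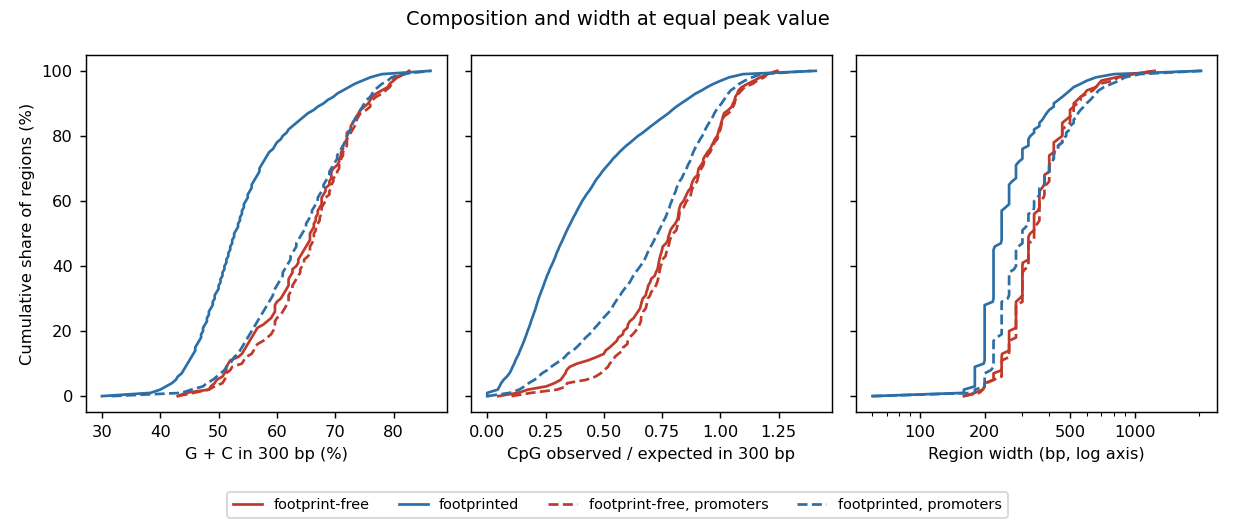
Cumulative share of regions (percent) by G + C content, by observed over expected CpG and by width (bp, log axis), for footprint-free regions (red) and footprinted regions of equal value (blue), in all strong regions (solid) and in promoters (dashed). The solid curves lie far apart in all 3 panels, with medians of 65.7% and 52.7% G + C and of 326 and 240 bp; the dashed curves lie closer together, at 66.3% and 64.3% and at 340 and 300 bp.

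Few lay in repeats, and most were in the stricter peak lists. The reference masks at least 50% of the bases as repeat in 0 of the 271 regions, which by 3 counts allows a share of up to 1.11% (Wilson upper bound 1.40%), against 0.841% of footprinted regions of equal value. In 2 regions (0.738%, against 0.573%) at least 50% of the 31-base words occur more than once in the genome. In the shorter, stricter peak lists 98.5% of them had a peak in replicate 1 (against 97.7%) and 91.9% in replicate 2 (against 85.9%, a difference of 5.96 points, 2.04 to 8.73). The median share of a region's bases with a deposited FDR under 0.001 was 100% in both kinds of region in replicate 1, and 93.8% against 78.8% in replicate 2. They lay on every autosome and on the X chromosome (6 regions), at 0.614% to 1.41% of the strong regions of each.

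Strings of 20 transcription factor motifs were searched on either strand in the middle 150 bp. Each string stands for a family of factors, and a match is a description, not a bound site. Across all strong regions the footprint-free regions held fewer of the strings common at distal sites. NEUROD E-box (CAGATG), the string of neuronal bHLH factors, was in 23 of 271 regions (8.49%), against 20.8% of footprinted regions of equal value, a difference of -12.3 percentage points (-15.1 to -8.31). Its share in all strong regions was 15.4%. The other E-box (CAGCTG) stood at 6.27% against 15.2%, with 12.5% in all strong regions. NFI (TTGGCA), a family of factors of glia and neurons, stood at 7.01% against 13.5% (11.2% in all). The steroid receptor site (AGAACA) stood at 5.54% against 12.1% (9.32% in all), and CTCF (CAGNGGGC), the insulator protein, at 5.17% against 12.2% (11.1% in all). For each of these 5 the interval of the difference excluded 0, also in either library alone. The single-library sets share regions with the main set, so they are not independent of it. In size, the single-library differences were -8.13 and -7.98 points for NEUROD E-box (replicate 2 alone, then replicate 1 alone), -3.55 and -3.11 for the other E-box, -1.79 and -6.02 for NFI, -3.45 and -3.51 for the receptor site and -5.89 and -3.99 for CTCF.

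With weighting on G + C content as well, 3 of these intervals included 0. They were NEUROD E-box at -1.88 points (-4.72 to 2.10), NFI at -1.70 (-4.27 to 2.04) and the receptor site at -0.797 (-3.02 to 2.64). With weighting on width that of CTCF did, at -2.73 points (-4.93 to 0.688). The interval of the other E-box excluded 0 under both weightings. AP-1 (TGANTCA) stood at 2.58% against 5.40% (4.34% in all), with a difference of -2.82 points whose interval just excluded 0 (-4.20 to -0.136). That interval included 0 with the shorter peak lists (-4.12 to 0.281), with reciprocal overlap (-4.34 to 0.176), with no footprint within 50 bp (-4.13 to 0.135), in either library alone and with G + C weighting (-1.95 to 2.12).

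Higher shares were seen for 2 GC-rich strings, SP/KLF (GGGGCGGGG) at 9.59% against 3.80% (7.45% in all; difference 5.79 points, 2.82 to 9.90) and EGR (GCGNGGGCG) at 4.80% against 2.39% (4.03% in all; 2.40 points, 0.416 to 5.65). With replicate 2 alone the SP/KLF difference was 1.79 points and with replicate 1 alone 3.31. The EGR difference was 4.31 points with the shorter peak lists and 4.27 with reciprocal overlap, and with width weighting its interval included 0 (0.938 points, -1.11 to 4.23). Both directions turned when promoters alone were compared, with differences of -1.02 points (-4.54 to 3.69) for SP/KLF and -3.01 points (-5.22 to 0.557) for EGR. The NEUROD E-box difference within promoters was -0.129 points (-2.91 to 3.95), that of NFI was -0.0778 (-2.65 to 3.82) and that of the receptor site was -1.03 (-3.21 to 2.51).

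Of the 5 strings, CTCF and the other E-box had intervals that excluded 0 inside promoters. CTCF was in 4.58% of footprint-free promoter regions, against 9.81% of footprinted ones of equal value (-5.23 points, -7.50 to -1.62), and the other E-box was in 6.67% against 10.7% (-4.08 points, -6.84 to -0.0328). In CpG-dense promoters CTCF stood at 5.05% against 9.59% (-4.54 points, -7.18 to -0.338) and EGR at 5.05% against 10.7% (-5.68 points, -8.35 to -1.45), while for the other E-box, at 6.06% against 8.75%, the interval included 0 (-2.69 points, -5.55 to 1.74). There NEUROD E-box ran the other way, at 7.07% of footprint-free and 3.92% of footprinted regions (3.15 points, 0.210 to 7.68). With 20 strings and several kinds of region compared and no adjustment, single intervals that just exclude 0 are weak evidence. In the full 300 bp printed above, a wider window than the 150 bp searched, the footprint-free sequences of Tnrc6c and Fbxl22 hold a CTCF string and that of Mapkapk2 holds NFI, NEUROD E-box and the other E-box, while those of Bcl7b and Hdac4 hold none of the 20. The printed footprinted sequences hold NFY (CCAATNA) at Ccdc58 and CRE (TGACGTCA) at Mif.

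**Figure D5:**
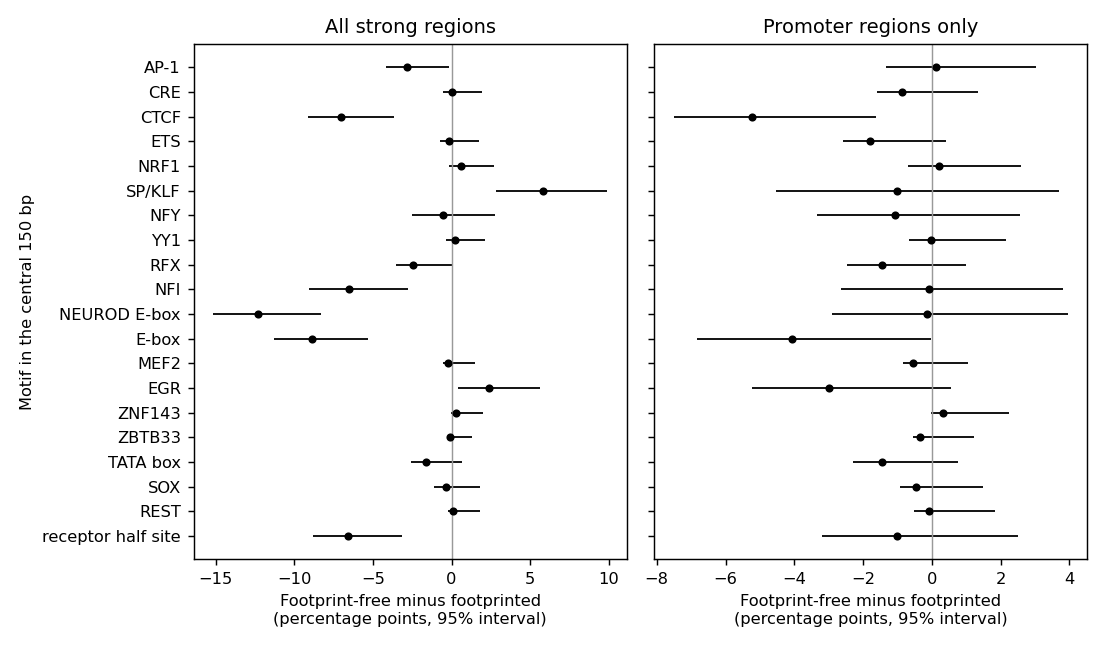
Difference between footprint-free and footprinted regions of equal value in the share of regions with each motif string in the middle 150 bp (percentage points, points with 95% intervals), in all strong regions (left) and in promoter regions (right; the scales differ). On the left NEUROD E-box lies lowest at -12.3 and SP/KLF highest at 5.79; on the right CTCF lies lowest at -5.23.

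The 31 distal regions are few, and their intervals are wide. Of them 19 (61.3%, 43.8 to 76.3) had a footprinted strong region within 500 bp, against 3.77% of distal footprinted regions of equal value (difference 57.5 points, 40.0 to 72.5). The highest, intronic and nearest to Fbxl22, a gene for an F-box protein, had values of 2.79 in replicate 1 and 2.22 in replicate 2 (chr9:66512321-66512660, 2102 bp downstream of the TSS) and a footprinted region 300 bp away. The intronic region nearest to Mapkapk2, a kinase downstream of stress-activated MAP kinases, had 2.32 and 1.68 (6465 bp upstream of the TSS). The intronic one nearest to Chst11, a chondroitin sulfotransferase, had 2.31 and 1.42. The region near Enc1, a kelch-repeat protein of neurons, had 2.35 and 1.18, and that near Mga, a MAX partner, had 1.48 and 1.86. None of these last 4 had a footprint of either library within 500 bp, and in the first 3 of them replicate 1 was the higher library.

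Promoters of 274 protein-coding genes held a footprint-free region, 1.25% of 21853 genes and 2.5% of the 10950 with any strong promoter region. Of the 274, 267 also held a footprinted region in the same promoter, and 7 did not. This is not particular to them. Among genes with any strong promoter region, 84 of 86 ribosomal protein genes and 51 of 54 histone genes held a footprinted one. Lists of marker genes gave few members. Of 10 forebrain glutamatergic genes 1 did, Dlg4, the main scaffold of excitatory synapses, at 1.92 in replicate 1 and 1.31 in replicate 2 (166 bp upstream of the TSS). A second, intronic region with Dlg4 as its nearest gene had 1.82 and 1.42. Of 12 activity-regulated genes 1 did, Dusp1, a phosphatase of MAP kinases, at 1.32 and 1.39 (371 bp downstream). Of 10 housekeeping genes 1 did, Polr2a, the largest subunit of RNA polymerase II, at 2.41 and 1.30 (924 bp upstream), and of 67 histone genes 1 did, Hist3h2a, at 2.07 and 1.72. All 4 of these promoters also held a footprinted region, as did nearly all genes of these lists with a strong promoter region.

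The count was 0 of 10 pan-neuronal genes, 0 of 8 interneuron, 0 of 8 astrocyte, 0 of 9 oligodendrocyte, 0 of 6 microglial and 0 of 4 endothelial genes. It was 0 of 98 ribosomal protein genes, of which 84 held a footprinted region. A footprint-free region was at 1.25% of all genes and 2.5% of those with a strong promoter region. With 1 gene or none per list, the counts are too few to set against these shares. Nothing particular to a list can be read from them. Footprinted strong promoter regions were present at 10 of 10 glutamatergic and 8 of 10 pan-neuronal genes, 4 of 8 astrocyte, 4 of 9 oligodendrocyte, 1 of 8 interneuron, 1 of 6 microglial and 0 of 4 endothelial genes. They were also present at 12 of 12 activity-regulated and 10 of 10 housekeeping genes. Among all protein-coding genes, 10950 of 21853 had a strong promoter region of any kind. These counts describe open promoters and do not identify the tissue.

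In position and neighbours, regions that lacked a footprint in 1 library alone lay between those that lacked it in both and the footprinted ones. Near a footprinted strong region, within 500 bp, were 90.8% of the 271 regions with none in either library, 44.8% (38.9 to 50.9) of the 261 with a footprint in replicate 2 only and 32.1% (29.3 to 35.1) of the 1027 with one in replicate 1 only. In promoters were 88.6%, 57.1% (51.0 to 62.9) and 47.6% (44.6 to 50.7) of them. Footprinted regions weighted to the values of each of the 3 kinds had neighbours in 7.04%, 7.31% and 7.76% and were in promoters in 24.4%, 26.1% and 28.9%. The CTCF string stood at 5.17%, 6.90% (4.41 to 10.6) and 5.36% (4.14 to 6.91), against 12.2%, 12.1% and 12.1% in the footprinted regions. Differences among the 3 kinds were not tested, beyond these intervals.

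The value threshold cut a continuous range. Just inside it were the regions of Fbxo47, at 1.06 in replicate 1 and 1.00 in replicate 2, and Usp9x, at 1.05 and 1.00, followed by Cd164, Acly and Irf2bpl, each at 1.01 in replicate 1. Just outside, also with no footprint, were those of Fbxl17, Plcg1, Gm10961 and Pcbp1, each at 0.999 in replicate 1, and 4930519P11Rik, at 0.991 in replicate 2. All 10 were promoter regions.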

How the data were processed

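For each library the authors deposited peaks in 2 lists, footprints, and single bases with an FDR, with mm10 (GRCm38) coordinates per the labels; aligner and callers: not given in the sources used here. The peak value is a signal, per library, deposited by the authors, with the scale not stated. Of the values below 1, the only ones tested, 100% were a whole multiple of 1 step (within 0.05 steps). The FDR deposited for each base was taken as a q-value; footprint lines, as deposited, all carry 0.01, taken as a threshold and not used. The mice are F1 hybrids and mm10 is the C57BL/6J genome, so reads with CAST/EiJ variants may map less well; the handling of these alleles is not known.

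Overlapping peaks were merged (adjoining ones stayed apart). Footprinted regions were weighted to the footprint-free ones in bins of 0.25 of the mean log2 value. Shares carry 95% Wilson intervals; differences join the Wilson bounds with the binomial variance within bins (Newcombe's hybrid method, used because plain variances fail at counts of 0). The limit given for a count of 0 is 3 counts of the total. Median differences carry no interval, and no p-value was computed, since there is 1 group of 2 libraries. TSSs were from GENCODE M21, a region's gene is that of the nearest TSS, and sequence was RefSeq GRCm38.p6. An intronic region overlaps a gene of any type, which need not be the gene of the nearest TSS. Named regions were the 10 highest, 10 highest promoter, 5 highest distal with under 10% repeated 31-base words, 5 widest and 5 on either side of the threshold; the regions of listed genes and the second Dlg4 region were added after their values were seen. The regions, gene lists and motifs were chosen with earlier results of these data known, and the neighbour comparison was added after seeing the data. Procedures were tested on simulated data. Python 3.11.15, NumPy 2.4.6, pandas 2.3.3, Numba 0.67.0 and Matplotlib 3.10.9 were used.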

Additional observations from a re-analysis of the deposited data

How the results depend on the processing

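Depth is unknown, 2 libraries allow no test between them, and the part of depth in the missing footprints was not tested. The number of footprint-free regions was 265 with the shorter peak lists, 257 with no footprint within 50 bp either and 227 with a reciprocal overlap of 50%. It was 20 with a value of 2 or more in both libraries, and 1359 and 2299 when only 1 library was used. Each difference from footprinted regions kept its direction with 1 library: 34.6 to 36 percentage points for promoters, 27.4 to 30.2 for CpG-dense regions, 41.8 to 48.9 for a neighbour, 9 to 20 bp in median width and 6 to 7.67 points in median G + C. Without either replicate the repeat-masked difference was -0.331 and -0.0837.

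With the threshold of 2 these differences were 44.0 points (promoters), 39.8 (CpG-dense), 87.3 (neighbour), 10.3 (G + C) and 120 bp. Weighting on width as well, in 50 bp bins (270 of 271 regions had a counterpart), gave 51.1 points for promoters, 43.5 for CpG-dense, 10 for G + C and, by construction of the weights, -8 bp in width. Other alternatives, chosen after seeing the data, were weighting on G + C content (29.3 points for promoters, 78.2 for a neighbour, 46 bp), promoters alone (17.6 points for CpG-dense, 77.3 for a neighbour, 2.00 for G + C, 40 bp) and distal regions alone (29.4, 57.5 and 4.33 points). For a neighbour the difference was 74.4 points with reciprocal overlap and 54.2 within 200 bp.

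Motif differences that reversed were those of SP/KLF in promoters (-1.02), in distal regions (-1.06, with 0 of 31 regions) and with G + C weighting (-1.46). Those of EGR reversed in promoters (-3.01), with G + C weighting (-2.99) and at the threshold of 2 (-5.24), and that of AP-1 in promoters (0.123). The interval of each reversed difference included 0. In distal regions EGR kept its direction, with 2 of 31 regions (5.78 points, 1.12 to 20.1). The cause of the reversals was not tested. Value bins of 0.1, the shorter lists and reciprocal overlap left all 20 motif differences inside the intervals of the reported values, though that of AP-1 then included 0 in its own interval with the last 2. Besides the reversals, replicate 2 alone moved 4 of the 20 outside, replicate 1 alone 3, G + C weighting 6, a 300 bp window 6 and a threshold of 2, with 20 regions, 14. Promoter windows of 500 bp and 2.5 kb (61.6 and 60.5 points) stayed inside the interval of the promoter difference. With the region's own composition the CpG-dense difference was 55.5 points, inside its interval. The G + C difference, which has no interval, was then 12.1 points.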
